A study of Mus musculus with 24 samples.

Results

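Transcripts of hepatic stellate cells and of the matrix that these cells deposit were followed in the livers of mice fed a methionine-restricted diet, in 10 of the 15160 genes in the count table. They were taken by gene symbol: the fibrillar collagen genes Col1a1, Col1a2 and Col3a1, the proteoglycan gene Dcn, the smooth muscle actin gene Acta2, the retinoid storage gene Lrat, the secreted protein genes Reln and Colec11, the protease inhibitor gene Timp1 and the cytokine gene Tgfb1. All samples were whole liver of male mice with an age of 5 months, sampled after a 4 h fast. WT mice carried the floxed Nfe2l2 gene (NRF2fl/fl) and NRF2 KO mice the same floxed gene with Cre recombinase driven by the albumin promoter (NRF2fl/(alb)), so that the WT controls were floxed as well. Mice of both genotypes ate an elemental amino acid diet for 8 weeks from 8 weeks of age, in which methionine made up 0.86% of the control diet (Con) and 0.17% of the restricted diet (MR). In the paper's 8-week experiment, calorimetry and a return to home cages came between these weeks and tissue harvest. Its livers were thus taken more than 8 weeks after the diets began. Each genotype on each diet was a group of 6 mice, and mice are named as in the labels. Results are given first without mice WT CON_7604 and WT MR_7612, which the study set aside before its own analysis, leaving 5 mice in each WT group and 6 in each NRF2 KO group.

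Hepatic stellate cells lie between the hepatocytes and the sinusoids. At rest they store vitamin A as retinyl esters, which Lrat forms, and they express reelin (Reln), decorin (Dcn) and collectin-11 (Colec11). When activated they lose this store, make smooth muscle actin (Acta2) and secrete fibrillar collagen, a switch driven by TGF-beta1 (Tgfb1), while TIMP-1 (Timp1) blocks the proteases that degrade matrix. The albumin promoter is active in hepatocytes and not in stellate cells, so the deletion was not directed at the cells that make most of these transcripts. The mRNA was measured in pieces of whole liver, where fewer stellate cells and less of a transcript per stellate cell cannot be told apart.

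Levels are CPM, in which each gene's read count is divided by the TMM-scaled total of its library, and the reads come from the 3′ end of each transcript, so that a level does not grow with transcript length. The 22 libraries in the fit held 6197291 to 22068338 counts, and WT CON_7604 and WT MR_7612 held 15295968 and 22414684. Nfe2l2, the targeted gene, read 202 to 339 CPM in the NRF2 KO libraries. It read 94.0 to 125 CPM in WT libraries other than the library labelled WT CON_7607. That library read 324 CPM, inside the NRF2 KO range, and so went against its label. The higher reads in NRF2 KO run opposite to the paper's qPCR, where primers for the excised sequence found less Nfe2l2 mRNA in NRF2 KO livers. Reads from the 3′ end need not cover that sequence, so they do not show how much intact transcript was left. Counts of called genes on MR in WT that change without that library are given both ways. All 21 other stellate cell markers, on a list that includes Des, Pdgfrb, Hgf and Lhx2, were detected in the tissue. None was at 3 counts or fewer in every mouse, which is a low bar and does not test the label. Of the 21, 20 passed the filter on low counts used below. The 21 markers summed to between 298 and 501 CPM per mouse. Hepatocyte markers summed to between 88900 and 140000 CPM.

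Promoters are shown for Col1a2, Col3a1 and Lrat, which were among the genes lower on MR in both genotypes. Colec11 was lower in both as well, and its promoter is not shown. Each stretch is the 150 bases before the RefSeq start site (GRCm38.p6), 5′ to 3′ on the strand of the gene. Capitals mark a CCAAT box, an Sp1 site with the letters GGGCGG, or a TATA box spelled as TATAAA, each on either strand. The stretches lie at chr6:4505468-4505617 (plus strand) for Col1a2, chr1:45311388-45311537 (plus strand) for Col3a1 and chr3:82903975-82904124 (minus strand) for Lrat.
Col1a2: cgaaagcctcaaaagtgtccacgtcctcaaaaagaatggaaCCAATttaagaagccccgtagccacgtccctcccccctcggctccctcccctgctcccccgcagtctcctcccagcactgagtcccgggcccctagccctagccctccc
Col3a1: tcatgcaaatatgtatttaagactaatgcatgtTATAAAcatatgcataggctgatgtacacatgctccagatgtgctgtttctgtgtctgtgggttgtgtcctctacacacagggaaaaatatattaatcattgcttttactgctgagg
Lrat: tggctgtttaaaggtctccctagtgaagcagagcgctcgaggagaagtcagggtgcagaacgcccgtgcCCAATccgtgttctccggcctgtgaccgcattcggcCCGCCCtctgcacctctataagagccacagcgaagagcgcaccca

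RefSeq promoters were matched for 8 of the 10 genes, all but Col1a1 and Dcn, and the 250 bases before each start site were searched on both strands. A CCAAT box was found in 3 of the 8 (Col1a2, Lrat and Timp1) and in 34.5% of all 27025 promoters. A TATA box was found in Col3a1 and in 13% of all promoters, and an Sp1 site in 5 of the 8 (Col1a2, Lrat, Reln, Timp1 and Tgfb1) and in 32.9% of all promoters. The SMAD site CAGAC, bound by the transcription factors of TGF-beta signaling, was found in Col1a2, Col3a1, Acta2 and Colec11 and in 42.1% of all promoters. The antioxidant response element core TGACNNNGC, the site of NRF2, was in none of the 8 and in 10.1% of all promoters, and the AP-1 site TGANTCA, which can overlap it, was in none of the 8 and in 6.87% of all promoters. These are matches of letters only, and a window without a match says nothing of the factor.

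Dietary MR lowered the fibrillar collagen transcripts in both genotypes, to 37.7% to 51.1% of the Con level in WT mice and to 50.9% to 63.4% in NRF2 KO mice. Lrat and Colec11 fell in both genotypes as well, and Dcn fell in WT mice. In WT mice MR lowered 6 of the 9 genes that passed the filter on low counts (adjusted p under 0.05 by edgeR's quasi-likelihood test over all genes) and raised none, where 13.8% of all 13336 genes tested were called and 6.91% were called lower. The median log2 fold change of the 9 was -0.63, against -0.006 over all genes. Without the library labelled WT CON_7607, 5 of the 9 were lowered in WT mice, as Dcn was no longer called. In NRF2 KO mice 5 of the 9 were lowered and none was raised, where 12.6% of all genes were called and 6.34% were called lower, with a median of -0.44 against -0.004. Called higher were 6.91% of all genes in WT and 6.23% in NRF2 KO mice. The same 5 genes (Col1a1, Col1a2, Col3a1, Lrat and Colec11) were called in both genotypes. The WT and NRF2 KO comparisons share no mice, but both come from 1 fit with 1 estimate of the spread. With all 24 mice in that fit, Lrat and Colec11 alone stayed called in NRF2 KO mice. Timp1 was the gene left out by the filter. The scaling mattered in NRF2 KO mice: with library size alone in place of TMM, the median of all genes moved up by 0.15 on the log2 scale, 86.1% rather than 49.6% of called genes were higher, and of the 9 genes Col3a1 alone stayed called (-0.66, edgeR adjusted p = 0.038). The same change in WT moved the median by 0.09 and the share of higher calls from 50.0% to 73.2%, and there Col1a1, Col1a2, Col3a1 and Lrat stayed called.

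**Figure D1:**
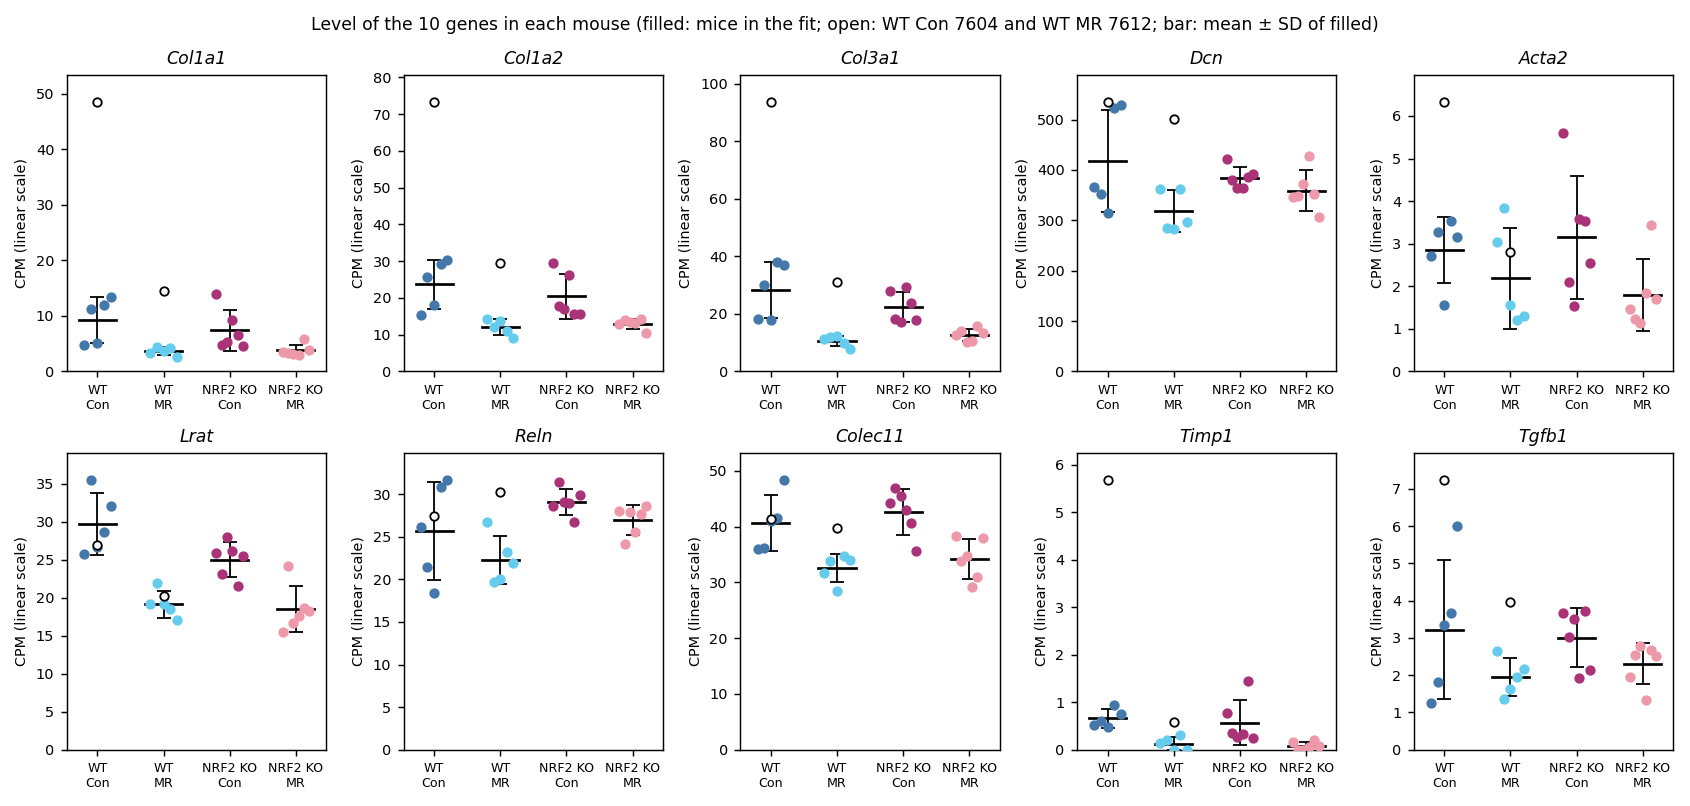
CPM of the 10 genes in each of the 24 mice on linear axes that start at 0, by group, with the mean ± SD of the mice in the fit (filled points) and with WT CON_7604 and WT MR_7612 as open points. Col1a1, Col1a2, Col3a1, Lrat and Colec11 sit lower in all 5 filled WT MR mice than in any filled WT Con mouse, and WT CON_7604 is far above its group for the collagens and Timp1.

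Type III collagen (Col3a1, chr1:45311538-45349706, plus strand) forms fibrils together with type I collagen. Its level in mice WT CON_7602, WT CON_7603, WT CON_7605, WT CON_7607 and WT CON_7608 was 18.3, 29.9, 17.8, 38.1 and 36.9 CPM, and in mice WT MR_7609, WT MR_7611, WT MR_7613, WT MR_7615 and WT MR_7616 it was 11.1, 11.9, 12.2, 9.94 and 7.68 CPM. Every WT MR mouse was below every WT Con mouse. The log2 fold change was -1.41 ± 0.22 (SE, adjusted p = 0.00025 by edgeR). Col3a1 in NRF2 KO mice ran from 17.1 to 29.2 CPM on Con (median 21.0) and from 10.2 to 15.7 CPM on MR (median 13), again without overlap, with a log2 fold change of -0.82 ± 0.19 (edgeR adjusted p = 0.0087). Of the 3 fibrillar collagens studied here, Col3a1 alone kept its call in both genotypes in each of the 22 fits that left out 1 mouse.

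Col1a1 (chr11:94936224-94953042, plus strand) and Col1a2 (chr6:4504814-4541544, plus strand) encode the chains of type I collagen, the main fibrillar collagen of scar. Col1a1 read 4.68, 11.3, 5.06, 12 and 13.4 CPM in the same WT Con mice and 3.39, 4.47, 3.63, 4.22 and 2.50 CPM in the WT MR mice. The WT mice on Con were split, with WT CON_7602 and WT CON_7605 just above the WT MR range and the other 3 well above it. The log2 fold change was -1.35 ± 0.34 (edgeR adjusted p = 0.012).

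Col1a2 was higher than Col1a1 in all 22 mice, at 15.4, 25.6, 18, 29.3 and 30.2 CPM in WT Con and 14.3, 12.1, 13.7, 11.0 and 9.15 CPM in WT MR. The groups did not overlap, although WT CON_7602 and WT MR_7609 lay close, and the log2 fold change was -0.97 ± 0.20 (edgeR adjusted p = 0.0026). Col1a2 in NRF2 KO mice ran from 15.5 to 29.6 CPM on Con (median 17.5) and from 10.4 to 14.3 CPM on MR (median 13.2), without overlap, and fell by 0.66 ± 0.18 on the log2 scale (edgeR adjusted p = 0.018). Col1a1 ran from 4.59 to 14 CPM on Con (median 5.92) and from 3.02 to 5.77 CPM on MR (median 3.44), with an overlap at NRF2 KO MR_7631, and fell by 0.97 ± 0.30 (edgeR adjusted p = 0.039).

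The type I collagen calls in NRF2 KO mice rested on few mice. Without NRF2 KO CON_7617, the highest of its group, the log2 fold change was -0.67 for Col1a1 (edgeR adjusted p = 0.13) and -0.51 for Col1a2 (adjusted p = 0.06). The Col1a1 call was also lost without NRF2 KO CON_7621 and without NRF2 KO MR_7625, NRF2 KO MR_7627, NRF2 KO MR_7628, NRF2 KO MR_7629 or NRF2 KO MR_7632, where the log2 fold change stayed between -0.97 and -0.90. In WT mice the calls of all 3 collagens held with each mouse left out.

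Decorin (Dcn, chr10:97479609-97518143, plus strand), a small proteoglycan that binds collagen fibrils, was the most abundant of the 10 transcripts. It read 366, 353, 315, 524 and 530 CPM in WT Con and 363, 285, 282, 363 and 297 CPM in WT MR. The groups overlapped, with WT CON_7603 and WT CON_7605 inside the WT MR range and WT CON_7607 and WT CON_7608 far above it. Dcn fell by 0.39 ± 0.12 on the log2 scale (edgeR adjusted p = 0.036). The call was lost without the library labelled WT CON_7607 (-0.29, adjusted p = 0.12), without WT CON_7608 (-0.29, adjusted p = 0.13) and without WT MR_7611, WT MR_7613 or WT MR_7616 (adjusted p from 0.085 to 0.095). Dcn in NRF2 KO mice ran from 365 to 421 CPM on Con (median 384) and from 306 to 428 CPM on MR (median 350), and its log2 fold change was -0.10 ± 0.11 (edgeR adjusted p = 0.61).

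Lrat (chr3:82892579-82903973, minus strand), lecithin-retinol acyltransferase, esterifies retinol for storage in stellate cell lipid droplets. It read 25.7, 35.5, 26.6, 28.6 and 32.1 CPM in WT Con and 19.1, 21.9, 19.1, 18.5 and 17.0 CPM in WT MR. The groups lay apart, and the log2 fold change was -0.63 ± 0.11 (edgeR adjusted p = 0.00054). In NRF2 KO mice it ran from 21.5 to 28 CPM on Con (median 25.7) and from 15.5 to 24.2 CPM on MR (median 17.9), with 1 MR mouse, NRF2 KO MR_7627, inside the Con range, and fell by 0.44 ± 0.10 on the log2 scale (edgeR adjusted p = 0.0048). Both calls held with each mouse left out and with all 24 mice.

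Colec11 (chr12:28594173-28623377, minus strand) encodes collectin-11, a soluble lectin that starts the lectin pathway of complement. It read 36.0, 36.1, 41.1, 41.6 and 48.4 CPM in WT Con and 31.7, 33.8, 28.5, 34.8 and 34.1 CPM in WT MR, so that the ranges met closely without overlap. Its log2 fold change was -0.32 ± 0.09 in WT (edgeR adjusted p = 0.025) and -0.32 ± 0.09 in NRF2 KO mice (edgeR adjusted p = 0.015), where it ran from 35.6 to 46.9 CPM on Con (median 43.6) and from 29.2 to 38.4 CPM on MR (median 34.3). The WT call was lost without WT CON_7608 (-0.25, adjusted p = 0.084), WT MR_7609 (-0.31, adjusted p = 0.053) or WT MR_7613 (-0.28, adjusted p = 0.075), and the NRF2 KO call held with each mouse left out.

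Reln (chr5:21884454-22344702, minus strand) encodes reelin, an extracellular glycoprotein that marks stellate cells in liver. It ran from 18.4 to 31.7 CPM in WT Con and from 19.7 to 26.8 CPM in WT MR, and from 26.7 to 31.4 and 24.2 to 28.6 CPM in NRF2 KO Con and NRF2 KO MR. Its log2 fold change on MR was -0.21 ± 0.12 in WT (edgeR adjusted p = 0.25) and -0.11 ± 0.10 in NRF2 KO mice (edgeR adjusted p = 0.55). The 95% interval, with 18 residual degrees of freedom, leaves room in WT for a change between -0.45 and 0.04.

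Acta2 (chr19:34241090-34255590, minus strand), smooth muscle alpha-actin, marks activated stellate cells and vascular smooth muscle, and it was low. It read 2.71, 3.27, 1.57, 3.54 and 3.15 CPM in WT Con and 3.05, 3.84, 1.56, 1.21 and 1.30 CPM in WT MR, with overlap across the range. The log2 fold changes were -0.28 ± 0.37 in WT (edgeR adjusted p = 0.67) and -0.77 ± 0.33 in NRF2 KO mice (edgeR adjusted p = 0.13), where it ran from 1.54 to 5.59 CPM on Con and from 1.13 to 3.43 CPM on MR. Without NRF2 KO MR_7631 the NRF2 KO value was -1.09 and passed the threshold (adjusted p = 0.035). Tgfb1 (chr7:25687002-25705077, plus strand) ran from 1.24 to 6.01 CPM in WT Con and from 1.35 to 2.66 CPM in WT MR, with log2 fold changes of -0.77 ± 0.32 in WT (edgeR adjusted p = 0.11) and -0.39 ± 0.28 in NRF2 KO mice (edgeR adjusted p = 0.40). Without WT CON_7602, its lowest mouse, the WT value was -0.96 (adjusted p = 0.027).

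Timp1 (chrX:20870166-20874735, plus strand) was close to the limit of detection, and Syn1, which is also in the count table, overlaps its 3′ end on the opposite strand. The 5 WT Con mice held 55 Timp1 counts in all and the 5 WT MR mice 8. The WT MR libraries were shallower, with a median of 11538109 counts against 14860992 in WT Con. Its level was 0.657 ± 0.192 CPM (SD, n = 5) in WT Con and 0.128 ± 0.132 CPM in WT MR, and no WT MR mouse reached the lowest WT Con mouse at 0.470 CPM. The difference of -0.529 CPM had an exact two-sided permutation p = 0.0079, the smallest that 5 against 5 mice can give. In NRF2 KO mice the level was 0.571 ± 0.474 CPM (SD, n = 6) on Con and 0.0827 ± 0.0874 CPM on MR, again without overlap, with a difference of -0.488 CPM and an exact permutation p = 0.0022, the smallest that 6 against 6 can give. No fold change between the diets is given for counts this low. Counting Timp1, 6 of the 10 genes in WT and 3 of the 10 in NRF2 KO mice were lower in each mouse on MR than in any mouse on Con, against 4.0% and 2.83% of all genes tested.

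**Figure D2:**
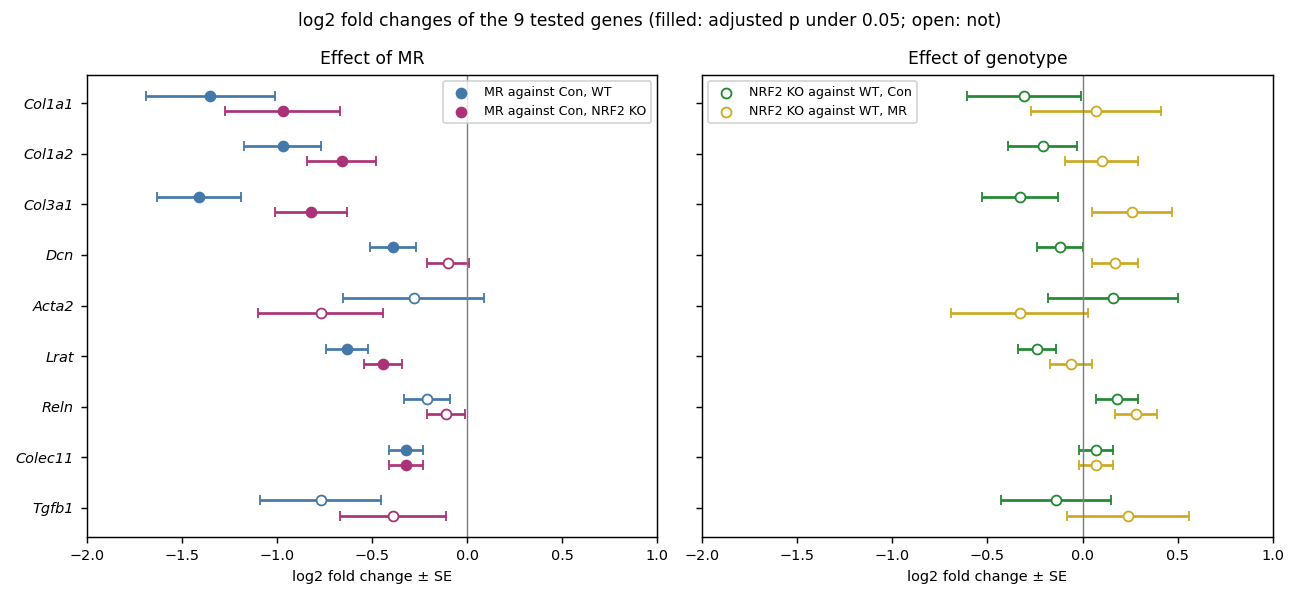
log2 fold change ± SE of the 9 tested genes for MR against Con (left, WT and NRF2 KO) and for NRF2 KO against WT (right, Con and MR). Filled points passed an adjusted p of 0.05. All 18 points on the left lie below 0, those of Dcn and Reln in NRF2 KO mice only with TMM scaling (0.06 and 0.05 with library size alone), and 11 are filled, while none on the right is filled.

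Genotype moved none of the 9 tested genes past the threshold on either diet. Timp1, which was outside the fit, differed between NRF2 KO and WT mice by -0.0865 CPM on Con and -0.0456 CPM on MR. Its exact two-sided permutation p were 0.75 and 0.52. On Con 0 of 9 were called, where 2.07% of all genes were called, with 1 of 9 at an unadjusted p under 0.05, and DESeq2 called none. On MR 0 of 9 were called, against 1.93% of all genes, again with 1 of 9 at an unadjusted p under 0.05 and none by DESeq2. The gene under 0.05 on Con was Lrat, with a log2 fold change of -0.24 ± 0.10 (edgeR adjusted p = 0.26), and all 6 NRF2 KO Con mice were below the WT Con median of 28.6 CPM. The gene on MR was Reln, at 0.28 ± 0.11 (edgeR adjusted p = 0.24), and no NRF2 KO MR mouse was below the WT MR median of 21.9 CPM. These comparisons share mice with those of MR. For the collagens the values on Con were -0.31 ± 0.30 (Col1a1), -0.21 ± 0.18 (Col1a2) and -0.33 ± 0.20 (Col3a1), and on MR they were 0.07 ± 0.34, 0.10 ± 0.19 and 0.26 ± 0.21, which turned to -0.58, -0.23 and -0.17 with all 24 mice.

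The collagen response to MR was smaller in NRF2 KO than in WT mice in value, but the difference between the genotypes did not pass the test. The interaction was 0.59 ± 0.29 on the log2 scale for Col3a1 (edgeR adjusted p = 0.67), 0.38 ± 0.46 for Col1a1 (adjusted p = 0.89), 0.31 ± 0.27 for Col1a2 (adjusted p = 0.84) and 0.29 ± 0.17 for Dcn (adjusted p = 0.73). None of the 9 was called, and neither edgeR at an unadjusted p under 0.05 nor DESeq2 called any, where 0.045% of all genes were called. The 95% intervals ran from -0.58 to 1.34 for Col1a1 and from -0.02 to 1.20 for Col3a1, which leaves room for a sizeable interaction in either gene. For Colec11 the response was the same in value, with an interval from -0.26 to 0.27.

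Spread between mice differed among the genes. The coefficient of variation within a group, as the median of the 4 groups, was 9.55% for Reln, 10.1% for Colec11, 11.6% for Lrat and 12.1% for Dcn, against 20.6% for Col3a1, 22.8% for Col1a2, 26.0% for Tgfb1, 35.5% for Col1a1 and 46.2% for Acta2. The 4 groups differed within a gene, from 5.43% to 24.4% for Dcn and from 5.29% to 22.5% for Reln, so that these ranges overlap those of Col1a2 (10.7% to 29.7%) and Col3a1 (16.9% to 34.7%). For the scarce Timp1 it was 92.5%, where counting error adds to the spread.

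Within groups the collagens varied together from mouse to mouse. Over 22 mice, with the group mean removed from log2 CPM, Pearson's r was 0.90 between Col1a1 and Col3a1, 0.82 between Col1a1 and Col1a2 and 0.80 between Col1a2 and Col3a1. Acta2 went with them, at r = 0.68 with Col1a1, 0.67 with Col3a1 and 0.52 with Col1a2. Dcn was most alike to Reln among the 10 genes (r = 0.73) and Colec11 to Tgfb1 (r = 0.60). Lrat was not above 0.44 with any of the others, and over all 45 pairs the median r was 0.32, with 9 pairs above 0.5. These correlations are descriptions of 22 libraries that also share depth and scaling.

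**Figure D3:**
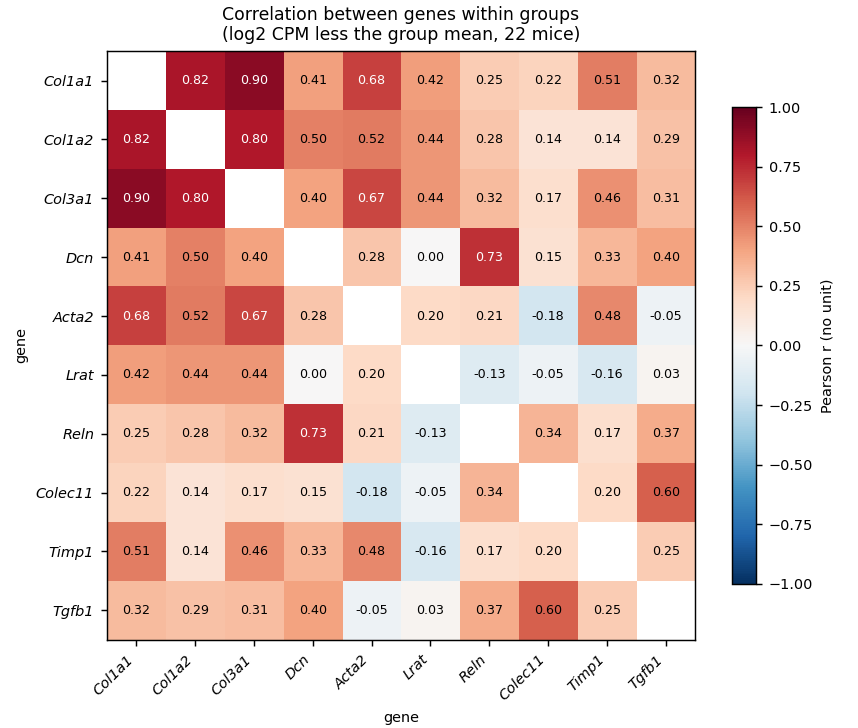
Pearson's r between the 10 genes over 22 mice, from log2 CPM less the group mean, with red for positive and blue for negative values. The block of Col1a1, Col1a2 and Col3a1 reads 0.80 to 0.90, and Lrat has no value above 0.44.

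Among the 11996 other genes with at least 1 CPM on average, the closest to Col1a1 were Col3a1 and Col1a2. The closest to Col3a1 after Col1a1 were Mxra7 (r = 0.84) and Anxa5 (r = 0.83), and the third closest to Col1a2, after Col1a1 and Col3a1, was Dlgap4 (r = 0.78). For Dcn they were Nap1l1, Adamtsl2 and Abcc9 (r = 0.86 each), for Lrat Cmip and Tbkbp1 (0.70 each) and Riok3 (0.66), and for Colec11 Dnajb6 (0.86), Plekho1 (0.82) and Slc9a3r2 (0.79). For Acta2 they were Mis18a (0.80), Cep295 and Pdgfa (0.75 each), for Reln after an unnamed gene Dusp3 (0.81) and Usp6nl (0.80), for Tgfb1 Napsa and Ssna1 (0.79 each) and Dbp (0.78), and for Timp1 Wdr4 and Ints2 (0.77 each) and Haus8 (0.75).

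The mice left out of the fit carried the highest collagen levels of their groups. In WT CON_7604 Col1a1 read 48.6 CPM, 5.23 times the mean of the other 5 WT Con mice, Col3a1 93.8 CPM (3.33 times), Col1a2 73.4 CPM (3.10 times) and Timp1 5.68 CPM, where the others had at most 0.939 CPM. Lrat, Reln and Colec11 were within the range of the other mice there, at 26.9, 27.5 and 41.4 CPM. In WT MR_7612 Col1a1 read 14.5 CPM (3.99 times), Col3a1 31.1 CPM (2.94 times), Col1a2 29.4 CPM (2.44 times) and Dcn 502 CPM (1.58 times), while Lrat and Acta2 were within range. In all, 7 of the 10 genes in WT CON_7604 and 8 of the 10 in WT MR_7612 were above every other mouse of the group.

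**Figure D4:**
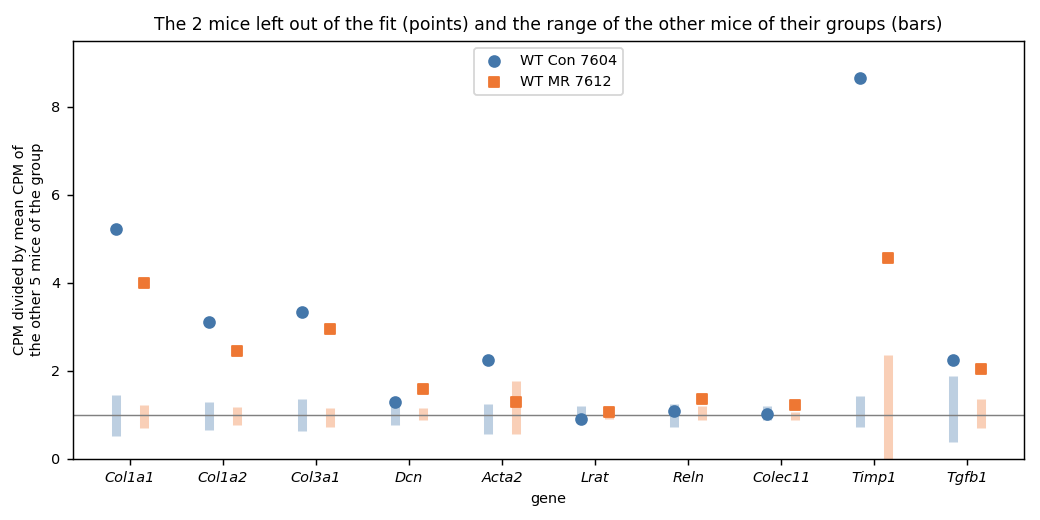
CPM of each gene in WT CON_7604 (circles) and WT MR_7612 (squares), divided by the mean CPM of the other 5 mice of the group, with the range of those 5 mice as bars. Col1a1 sits at 5.23 and 3.99 while Lrat is at 0.907 and 1.06, and the Timp1 ratios rest on only 55 and 8 counts in the other 5 mice.

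Markers of stellate cells and of several other cells were also high in these mice. The 21 other stellate cell markers summed to 516 CPM in WT CON_7604 and to 353 to 501 CPM in the other WT Con mice. In WT MR_7612 they summed to 446 CPM, against 298 to 348 CPM in the other WT MR mice. The 4 neutrophil markers summed to 33.2 CPM in WT CON_7604 and to 8.14 to 14.9 CPM in the other WT Con mice, and the portal fibroblast and mesothelial markers (9 of 11 listed, Gli1 and Pi16 not analysed here) to 29.3 CPM against 10.4 to 18.2 CPM. In WT MR_7612 the Kupffer cell markers (10 of 11 listed, Clec4f not analysed here) summed to 644 CPM against 346 to 394 CPM, and the portal fibroblast and mesothelial markers to 22.6 CPM against 11.1 to 12.3 CPM. The sums of the bile duct markers and of the T and NK cell markers were also above those of the other mice in both. The hepatocyte markers were within range in both, and so were the sinusoidal endothelial and smooth muscle markers in WT CON_7604. The part of these cells in the collagen levels was not tested.

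Which of these mice enters the fit decides several calls. With all 24 mice MR lowered 4 of 9 genes in WT (Col1a2, Col3a1, Lrat and Colec11) and 2 of 9 in NRF2 KO mice (Lrat and Colec11). With WT MR_7612 alone added, a choice made after seeing the data, the WT log2 fold change was -0.71 for Col1a1 (edgeR adjusted p = 0.27) and -0.64 for Col1a2 (adjusted p = 0.093), and only Col3a1 (-0.98, adjusted p = 0.028) and Lrat (-0.62, adjusted p = 0.00029) stayed called. With WT CON_7604 alone added the WT value of Col1a1 was -2.12 (adjusted p = 0.0098), and 8 of the 10 genes then tested were called, Tgfb1 and Timp1 among them. The NRF2 KO values hardly moved, as with Col1a1 at -0.97 throughout, but the fit shares 1 estimate of the spread, and the adjusted p for Col1a1 there became 0.28 with all 24 mice. Fitted on the 12 NRF2 KO mice alone, the adjusted p in NRF2 KO mice were 0.038 (Col1a1), 0.015 (Col1a2) and 0.003 (Col3a1).

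Other collagens and the enzymes that fold and cross-link collagen fell on MR in part, and edgeR called none of the 18 and 23 genes tested for a difference between the genotypes (interaction), as it did 0.045% of all genes. The shares of all genes to set beside the counts of this and the following lists are 6.91% lower and 6.91% higher in WT and 6.34% lower and 6.23% higher in NRF2 KO mice. Of 18 other collagen genes tested, 9 fell and none rose in WT (median log2 fold change -0.52) and 2 fell in NRF2 KO mice (median -0.28). Without the library labelled WT CON_7607, 7 fell and 1 rose in WT, and 3 fell in NRF2 KO mice. In WT the largest falls were in Col27a1, a fibrillar collagen of cartilage (-1.13 ± 0.33, edgeR adjusted p = 0.027), in Col8a1, a short-chain collagen (-1.10 ± 0.33, adjusted p = 0.026), and in Col6a2 (-1.08 ± 0.26, adjusted p = 0.0076) and Col6a1 (-0.83 ± 0.24, adjusted p = 0.024), chains of microfibrillar type VI collagen. Col27a1 in NRF2 KO mice went from 46.8 ± 10.9 to 11.4 ± 3.79 CPM (SD, n = 6 and 6, log2 fold change -2.05 ± 0.30, edgeR adjusted p = 0.00028) and Col5a3 from 18.5 ± 3.10 to 10.7 ± 1.08 CPM (-0.79 ± 0.13, adjusted p = 0.00039), both without overlap. In WT the calls of Col27a1, Col8a1 and Col6a1 were lost without 4 or 5 of the mice in turn, with the highest adjusted p at 0.074 (Col27a1 without WT CON_7605), 0.069 (Col8a1 without WT CON_7608) and 0.10 (Col6a1 without WT CON_7608).

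Of 23 genes for folding and cross-linking collagen, 9 fell and 1 rose in WT (median -0.49), and 4 fell and 1 rose in NRF2 KO mice (median -0.20). Without the library labelled WT CON_7607, 8 fell in WT, and with all 24 mice 1 fell in NRF2 KO mice. The collagen chaperone Serpinh1 fell from 5.31 ± 0.609 to 2.92 ± 0.567 CPM (SD, n = 5 and 5, -0.86 ± 0.19, edgeR adjusted p = 0.0047), the procollagen protease enhancer Pcolce from 7.69 ± 1.71 to 4.26 ± 0.603 CPM (-0.85 ± 0.15, adjusted p = 0.00046) and the lysyl oxidase Loxl2 from 4.93 ± 1.08 to 2.35 ± 0.680 CPM (-1.06 ± 0.23, adjusted p = 0.0027), each without overlap. Loxl1 fell by 1.12 ± 0.35 (adjusted p = 0.032), a call lost without 5 of the mice in turn (adjusted p up to 0.10, without WT CON_7608). In NRF2 KO mice the prolyl isomerase Ppib (-0.46 ± 0.10, adjusted p = 0.0049), the collagen-binding glycoprotein Sparc (-0.40 ± 0.09, adjusted p = 0.0042) and the procollagen protease Bmp1 (-0.37 ± 0.12, adjusted p = 0.044, up to 0.11 without NRF2 KO CON_7621) fell, and Mia3, which loads collagen into transport carriers, rose by 0.32 ± 0.08 (adjusted p = 0.011). The Bmp1 call was lost in 13 of the 22 fits that left out 1 mouse. Loxl2 was also lower in NRF2 KO than in WT mice on Con (-0.98 ± 0.21, edgeR adjusted p = 0.0098).

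Of 22 matrix proteoglycans and glycoproteins, 7 fell in WT (median -0.52) and 2 in NRF2 KO mice (median -0.16), and none rose. In WT 6 fell without the library labelled WT CON_7607, and with all 24 mice none fell in NRF2 KO mice. Elastin (Eln) went from 3.84 ± 1.20 to 1.72 ± 0.733 CPM (SD, n = 5 and 5, -1.18 ± 0.29, edgeR adjusted p = 0.0078) and the elastic fibre protein Fbln5 from 4.52 ± 1.19 to 2.24 ± 0.442 CPM (-1.05 ± 0.22, adjusted p = 0.0024). The calcification inhibitor Mgp (-1.48 ± 0.42, adjusted p = 0.023) and the decorin partner Dpt (-0.99 ± 0.29, adjusted p = 0.027) fell too, but without WT CON_7608 their adjusted p were 0.081 and 0.082. These calls were lost without 4 (Mgp) and 5 (Dpt) of the mice in turn. In NRF2 KO mice the proteoglycan Bgn (-0.32 ± 0.09, adjusted p = 0.019, and 0.062 without NRF2 KO CON_7617) and vitronectin, Vtn (-0.26 ± 0.08, adjusted p = 0.046, and 0.10 without NRF2 KO MR_7625), fell. The Vtn call was lost in 12 of the 22 fits that left out 1 mouse. Eln was lower in NRF2 KO than in WT mice on Con (-1.12 ± 0.26, edgeR adjusted p = 0.021). This call was lost without 4 of the mice in turn, among them the library labelled WT CON_7607 (-0.96, adjusted p = 0.059) and WT CON_7608 (-1.06, adjusted p = 0.06).

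Of 14 matrix proteases and their inhibitors, 3 fell in WT and 2 in NRF2 KO mice, with medians of -0.38 and -0.09, and 2 fell in WT without the library labelled WT CON_7607. The macrophage elastase Mmp12 fell from 5.38 ± 5.97 to 0.475 ± 0.368 CPM (SD, n = 5 and 5, -3.64 ± 0.95, edgeR adjusted p = 0.016), with a WT Con range of 0.658 to 12.6 CPM that reached into the WT MR range. The inhibitor Timp2 fell from 41.9 ± 12.7 to 27.7 ± 2.89 CPM (-0.60 ± 0.14, adjusted p = 0.0069). The membrane protease Mmp15 fell in both genotypes (-0.41 ± 0.13, adjusted p = 0.031, in WT and -0.57 ± 0.11, adjusted p = 0.0021, in NRF2 KO), and the protease inhibitor Serpine2 in NRF2 KO mice (-1.53 ± 0.45, adjusted p = 0.031). The WT call of Mmp15 (adjusted p = 0.085 without WT MR_7609) and the call of Serpine2 (0.072 without NRF2 KO MR_7629) were among those lost with single mice left out.

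Members of the TGF-beta pathway were mostly not called. Of 28 genes tested, 4 fell and none rose in WT (median -0.07), and 1 fell and 1 rose in NRF2 KO mice (median -0.03), while 3 fell in WT without the library labelled WT CON_7607. Those that fell in WT were Pmepa1, a TGF-beta target that dampens the pathway, from 16.7 ± 6.15 to 7.71 ± 0.869 CPM (SD, n = 5 and 5, -1.13 ± 0.21, edgeR adjusted p = 0.0011), the ligand Tgfb2 (-1.01 ± 0.23, adjusted p = 0.0053), the receptor Acvrl1 (-0.83 ± 0.22, adjusted p = 0.012) and the latency protein Ltbp1 (-0.82 ± 0.26, adjusted p = 0.037). Ltbp1 also fell in NRF2 KO mice (-0.76 ± 0.23, adjusted p = 0.034), and both its calls were lost without 7 of the mice in turn (adjusted p up to 0.12 in WT without WT CON_7607 and 0.10 in NRF2 KO without NRF2 KO CON_7617). The shared signal transducer Smad4 rose in NRF2 KO mice (0.23 ± 0.06, adjusted p = 0.015).

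Of 20 other stellate cell markers tested, 7 fell and none rose in WT (median -0.39), and 2 fell in NRF2 KO mice (median -0.18), while 4 fell in WT without the library labelled WT CON_7607 and 4 with all 24 mice. The summed level of the 21 markers was 353 to 501 CPM in WT Con and 298 to 348 CPM in WT MR, without overlap, but 378 to 420 CPM in NRF2 KO Con and 365 to 448 CPM in NRF2 KO MR, where the ranges overlapped. In WT the named falls were in the matrix regulator Adamtsl2 (-1.38 ± 0.33, edgeR adjusted p = 0.0077), cytoglobin, Cygb (-0.72 ± 0.17, adjusted p = 0.0082), and the neurotrophin receptor Ngfr (-0.62 ± 0.19, adjusted p = 0.033). Ngfr (-0.72 ± 0.18, adjusted p = 0.010) and the superoxide dismutase Sod3 (-0.31 ± 0.08, adjusted p = 0.0090) fell in NRF2 KO mice. The WT call of Ngfr was lost without 5 of the mice in turn (-0.49, adjusted p = 0.11 without WT CON_7608).

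Of 11 activation and contractile genes, 4 fell in WT and none in NRF2 KO mice, where 1 rose, with medians of -0.57 and -0.24, and 3 of 12 fell in WT without the library labelled WT CON_7607. Osteopontin, Spp1, which bile duct cells express as well and which is on their list too, fell from 24.7 ± 10.9 to 11.2 ± 1.80 CPM (SD, n = 5 and 5, -1.15 ± 0.23, edgeR adjusted p = 0.0025). The calcium-binding S100a6 (-0.77 ± 0.18, adjusted p = 0.0066), the calponin Cnn2 (-0.57 ± 0.14, adjusted p = 0.0072) and vimentin, Vim (-0.51 ± 0.15, adjusted p = 0.025, and 0.074 without the library labelled WT CON_7607), fell in WT, and tropomyosin, Tpm1, rose in NRF2 KO mice (0.61 ± 0.14, adjusted p = 0.0075). On Con, Spp1 was lower in NRF2 KO than in WT mice (-0.90 ± 0.22, adjusted p = 0.030, and 0.10 without WT CON_7608). The call of Vim in WT and that of Spp1 on Con were lost without 5 and 6 of the mice in turn.

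**Figure D5:**
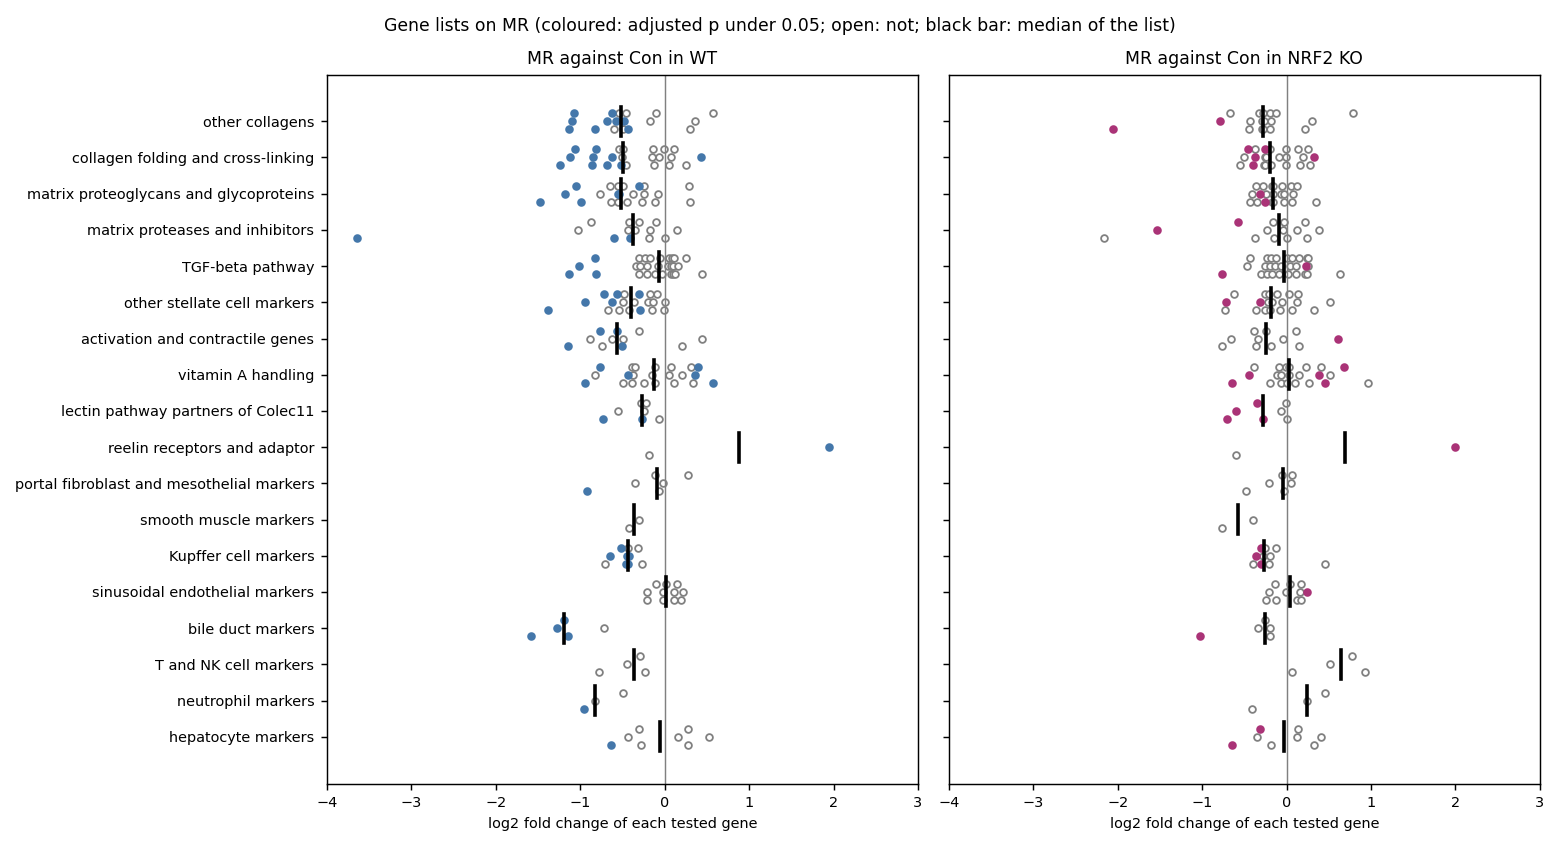
log2 fold change of each tested gene of the 18 lists on MR in WT (left) and NRF2 KO mice (right), coloured where the adjusted p was under 0.05, with the median of each list as a black bar. In WT the matrix and stellate lists lie mostly below 0, with medians from -0.57 to -0.38, while the TGF-beta pathway and the sinusoidal endothelial markers centre at -0.07 and 0.02. Markers of other cells had WT medians of -1.19 (bile duct), -0.83 (neutrophil), -0.44 (Kupffer cell), -0.37 (T and NK cell) and -0.36 (smooth muscle). Those of portal fibroblasts and of hepatocytes were at -0.10 and -0.06.

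Vitamin A genes other than Lrat moved in both directions, with 3 higher and 3 lower of 22 in WT and 3 higher and 2 lower in NRF2 KO mice. Without the library labelled WT CON_7607, 3 were higher and 1 was lower in WT. The retinol transporter gene Stra6l fell from 118 ± 26.0 to 69.2 ± 7.86 CPM in WT (SD, n = 5 and 5, -0.77 ± 0.13, edgeR adjusted p = 0.00037) and by 0.45 ± 0.12 in NRF2 KO mice (adjusted p = 0.014). Pnpla2, a lipase of lipid droplets, rose in WT (0.57 ± 0.11, adjusted p = 0.0010) and NRF2 KO mice (0.46 ± 0.10, adjusted p = 0.0029). Aldh1a1, which makes retinoic acid, fell in NRF2 KO mice (-0.65 ± 0.13, adjusted p = 0.0026), and on MR was lower in NRF2 KO than in WT mice (-0.98 ± 0.14, adjusted p = 0.00011). The retinoic acid receptor Rara in WT (-0.43 ± 0.15, adjusted p = 0.048) and Rdh11 in NRF2 KO mice (0.68 ± 0.22, adjusted p = 0.050) were called at the edge of the threshold. These calls were lost in 15 (Rara) and 18 (Rdh11) of the 22 fits that left out 1 mouse, with a highest adjusted p of 0.12. Aldh1a7 was lower in NRF2 KO mice on Con (-0.40 ± 0.11, adjusted p = 0.047, and 0.13 without WT CON_7603) and on MR (-0.44 ± 0.11, adjusted p = 0.026, and 0.088 without WT MR_7613).

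Of 7 genes listed around Colec11 and the lectin pathway, 2 were lower in WT and 4 in NRF2 KO mice, with medians of -0.27 and -0.28. With all 24 mice 1 and 2 of the 7 were lower. The 2 called in WT were Colec12 and Mbl1, and neither of the proteases Masp1 and Masp2 was called there. The scavenger collectin Colec12 fell in WT (-0.73 ± 0.17, edgeR adjusted p = 0.0064) and NRF2 KO mice (-0.60 ± 0.15, adjusted p = 0.012), as did the mannose-binding lectin Mbl1 (-0.27 ± 0.09, adjusted p = 0.039, and -0.28 ± 0.08, adjusted p = 0.019). The proteases Masp1 (-0.71 ± 0.21, adjusted p = 0.030) and Masp2 (-0.35 ± 0.10, adjusted p = 0.019) fell in NRF2 KO mice. The calls of Mbl1 in WT (0.11 without WT MR_7615) and of Masp1 (0.090) and Masp2 (0.058, both without NRF2 KO CON_7617) were lost with single mice left out. Of the reelin receptors, Vldlr, which also takes up lipoproteins, rose from 4.32 ± 1.97 to 16.8 ± 9.07 CPM in WT (SD, n = 5 and 5, 1.95 ± 0.42, adjusted p = 0.0045) and from 5.68 ± 1.76 to 22.8 ± 7.68 CPM in NRF2 KO mice (n = 6 and 6, 1.99 ± 0.36, adjusted p = 0.0016).

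Markers of other liver cells moved with the collagens in part. The Kupffer cell markers summed to 448 to 584 CPM in WT Con and 346 to 394 CPM in WT MR, with 6 of 10 lower in WT (5 without the library labelled WT CON_7607 and 3 with all 24 mice) and 3 of 10 in NRF2 KO mice (1 with all 24 mice), among them C1qa (-0.52 ± 0.10, edgeR adjusted p = 0.0017, in WT and -0.36 ± 0.09, adjusted p = 0.014, in NRF2 KO). Cd68 (-0.65 ± 0.16), Csf1r (-0.46 ± 0.12) and C1qb (-0.45 ± 0.10) fell in WT as well, and C1qb (-0.30 ± 0.09, up to an adjusted p of 0.073) and C1qc (-0.30 ± 0.10, up to 0.11, both without NRF2 KO CON_7618) in NRF2 KO mice. The NRF2 KO calls of C1qb and C1qc were lost without 4 and 9 of the mice in turn. The bile duct markers (6 of 7 listed) summed to 49.4 to 73.3 CPM in WT Con and 20.9 to 28.3 CPM in WT MR, and to 31.8 to 53.6 and 20.7 to 29.0 CPM in NRF2 KO mice, with 4 of 5 lower in WT and 1 of 5 in NRF2 KO mice. Epcam fell in WT (-1.59 ± 0.41, adjusted p = 0.012, and 0.052 without WT CON_7608), and Sox9 was lower in both genotypes (-1.28 ± 0.19, adjusted p = 0.00014, and -1.03 ± 0.17, adjusted p = 0.00050). Their part in the collagen values was not tested.

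The sinusoidal endothelial markers summed to 350 to 418 CPM in WT Con and 380 to 406 CPM in WT MR, with 0 of 11 called in WT by edgeR and Kdr alone, 0.24 ± 0.06 higher, called in NRF2 KO mice (adjusted p = 0.013). The smooth muscle markers (3 of 5 listed, Cnn1 and Actg2 not analysed here) summed to 4.97 to 8.78 and 4.06 to 6.6 CPM in WT Con and WT MR. The portal fibroblast and mesothelial markers summed to 10.4 to 18.2 and 11.1 to 12.3 CPM, with Thy1 alone lower (1 of 6 in WT, -0.92 ± 0.22, adjusted p = 0.0067). Neutrophil markers summed to 8.14 to 14.9 and 6.40 to 7.84 CPM, with Retnlg lower (1 of 3 in WT, -0.96 ± 0.29, adjusted p = 0.028, and 0.073 without WT MR_7616, and none called without the library labelled WT CON_7607), and none of the 4 T and NK cell markers tested was called. Of 8 hepatocyte markers 1 fell in WT and 2 in NRF2 KO mice, with medians of -0.06 and -0.03, and without the library labelled WT CON_7607 1 rose in each genotype as well. Apoa1 fell in WT (-0.64 ± 0.10) and in NRF2 KO mice (-0.32 ± 0.09, adjusted p = 0.017, and 0.053 without NRF2 KO CON_7618), and was higher in NRF2 KO than in WT mice on MR (0.50 ± 0.09, adjusted p = 0.0025). Serpina1c fell in NRF2 KO mice (-0.65 ± 0.20, adjusted p = 0.038, and 0.089 without NRF2 KO MR_7629), a call lost without 9 of the mice in turn.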

How the data were processed

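Liver RNA of 24 mice was sequenced as QuantSeq 3′ libraries, 1 per mouse. The deposited count values are raw reads per gene, made by the authors with the pipeline of the library maker. The submitters' notes name GRCm38, mm10, R 3.4.3 and DESeq2 1.18.1, and the aligner is not given in the sources used here. The deposited signal values are those counts divided by 1 size factor per mouse and served for 1 alternative. Counts were fitted in R 4.3.3 with edgeR 4.0.16 (TMM, filter by expression keeping 13336 of 15160 genes, robust quasi-likelihood F-tests, 1 mean for each of 4 groups, 22 mice), with Benjamini-Hochberg adjustment over all genes and calls at 0.05. CPM used TMM library sizes, and log2 CPM a prior count of 2. Timp1, below the filter, was compared by two-sided exact permutation tests (scipy 1.17.1). The fits were tested on simulated data. Alternatives used DESeq2 1.42.0 and limma 3.58.1 (pseudocount 1), other scalings and filters, and other sets of mice. Gene positions are GENCODE M21 (GRCm38) and promoters RefSeq. Named are the 10 genes, Nfe2l2, up to 4 called genes with at least 1 CPM and the largest change per list and comparison, and the 3 genes most like each of the 10. Some genes that this rule names are not reported here. The genes and lists were chosen with earlier results of these data known. Depth in the 22 mice of the fit ran from 6197291 to 22068338 counts (median 15019791), and the mice set aside had 15295968 and 22414684 counts. Low transcripts are limited by counting error.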

Additional observations from a re-analysis of the deposited data

Results flagged for a closer look

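Dixon's test on the highest and lowest mouse was applied to 60 groups of 5 or 6 mice, and chance flags about 1 in 20 groups. Among the 22 mice it flagged NRF2 KO MR_7631 for Col1a1 (5.77 CPM) and Acta2 (3.43 CPM) and NRF2 KO MR_7627 for Lrat (24.2 CPM), each as the highest of its group. With the mice that were set aside included, WT CON_7604 was flagged for Col1a1 (48.6 CPM), Col1a2 (73.4 CPM), Col3a1 (93.8 CPM) and Timp1 (5.68 CPM), and WT MR_7612 for Col1a1 (14.5 CPM), Col1a2 (29.4 CPM), Col3a1 (31.1 CPM) and Dcn (502 CPM). These 2 mice lie outside the main comparisons and had 7 and 8 of the 10 genes above every other mouse of their groups. They stood apart from their groups over all genes as well, and no cause was tested.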

How the results depend on the processing

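No paired analysis was possible because no mouse number is shared between groups. Fits without 1 mouse each gave 1416 to 1974 genes called for MR in WT, 1188 to 2027 for MR in NRF2 KO, 181 to 314 for NRF2 KO on Con, 191 to 336 for NRF2 KO on MR and 3 to 12 for the interaction (12 without the library labelled WT CON_7607). Of the 10 genes they called 4 to 8 for MR in WT, 3 to 6 for MR in NRF2 KO and none for genotype or interaction. The log2 values that changed sign in such fits, none of them called, ran from -0.11 to 0.17 (Col1a1, NRF2 KO on MR), -0.11 to 0.31 (Acta2, NRF2 KO on Con), -0.34 to 0.24 (Tgfb1, NRF2 KO on Con) and, for the interaction, from -0.07 to 0.05 (Colec11), -0.00 to 0.58 (Tgfb1) and -0.10 to 0.46 (Nfe2l2). With library size alone 2785 genes and 1 of the 10 were called for MR in NRF2 KO, and Dcn (0.06) and Reln (0.05) changed sign there, which relative to the median of all genes were at -0.09 and -0.10. For MR in NRF2 KO 2 of the 10 were called with all 24 mice and with either of WT CON_7604 and WT MR_7612 added, and for MR in WT 2 were called with WT MR_7612 added, these single additions being chosen after seeing the data. For NRF2 KO on Con 451 genes were called by DESeq2, 99 with the compared groups only and 427 with WT CON_7604, for NRF2 KO on MR 496 by DESeq2 and 600 with the compared groups only, and for the interaction 35 by DESeq2 and 1 with WT MR_7612. With WT MR_7612, alone or among all 24 mice, the values on MR between genotypes changed sign for Col1a1 (-0.58), Col1a2 (-0.23), Col3a1 (-0.17) and Tgfb1 (-0.03), and with WT MR_7612 alone so did the interaction of Col1a1 (-0.27), Col1a2 (-0.01) and Colec11 (-0.05, and -0.04 with all 24 mice). With WT CON_7604, alone or among all 24, Acta2 on Con was at -0.12. By limma on the deposited normalized values the Colec11 interaction was -0.00, Tgfb1 on Con was 0.05, and Col1a1 on MR in NRF2 KO was not called (-0.87, adjusted p = 0.051). With the compared groups only, Dcn in WT was not called (adjusted p = 0.12). With at least 10 counts in every mouse Acta2 could not be tested. Of 81 calls of other named genes 50 held without each mouse in turn and 58 with all 24 mice. The causes were not tested. Transcripts near 1 CPM are limited by counting error.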
